A study of Mus musculus with 4 samples.

Results

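Elastic fibre and fibulin genes were examined in mouse lungs that carried metastases of a triple-negative breast cancer (TNBC) and received saline or a combined therapy. The group holds 10 of the 56748 genes listed with the counts: Eln, Fbln1, Fbln2, Fbln5, Efemp1, Efemp2, Fbn1, Fbn2, Mfap4 and Mfap5. The members were chosen by gene symbol with the counts of the same treatment contrast already known, so their differences between the groups are given as a description. Calls from tests run over all genes are counted among them for reference only. All 10 passed the filter on low counts, as did 15320 genes in all.

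Bulk RNA sequencing was done on 2 saline samples and 2 ADC/cmLumiOpto samples, and the study describes 4 samples per group. Female BALB/cJ mice were used, aged 7 weeks when 4T1-FLuc cells, mouse TNBC cells made to express firefly luciferase, were injected into the tail vein. Both groups carried these tumor cells. The controls received saline, called PBS in the treatment label. The treated mice received CD276-DM1, an antibody-drug conjugate (ADC) against the surface protein CD276 that carries the microtubule inhibitor mertansine, together with cmLumiOpto. The latter is a viral vector, delivered with antibody-tagged exosomes and driven by a cfos promoter, whose light-gated channel depolarizes the mitochondria of cancer cells when a luminescent substrate is given. The treatment label gives 16 mg/kg of the ADC and adds the abbreviation Olap, which is not explained, whereas the methods give a lower dose and no Olap. The labels also speak of harvested tumor cells, and the methods of dissociated lung tissue. Markers of lung tissue were abundant: Sftpc, the surfactant gene of alveolar type II cells, had between 2585 and 76235 counts per sample, so RNA of lung epithelium was present. No label says that the same-numbered samples share an animal or a day.

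Elastic fibres let the lung recoil after each breath. Their core is elastin, secreted as the monomer tropoelastin and deposited on a scaffold of microfibrils built from fibrillins and microfibril-associated proteins. Fibulins bring tropoelastin to that scaffold and to the lysyl oxidases that cross-link it. In the lung these proteins are made mainly by fibroblasts, smooth muscle cells and other mesenchymal cells, and most elastin is laid down during development.

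Total counts lay between 15263375 and 19675436 per sample. Levels are given as CPM, counts scaled to a common library size with TMM normalization (the CPM of edgeR), and 3 counts corresponded to between 0.152 and 0.197 CPM, a floor for counting error only. No gene of 15320 had an adjusted p under 0.05 in the quasi-likelihood test of edgeR (0%), the smallest being 0.116, and so 0 of the 10 members were called. At an unadjusted p under 0.05, 1863 genes were lower (12.2%) and 1690 higher (11.0%), among them 4 and 3 members. In the edgeR exact test, 564 genes were lower (3.68%) and 606 higher (3.96%) at an adjusted p under 0.05, among them 4 and 1 members. DESeq2 called 1353 of the 13537 genes that it gave an adjusted p (9.99%), 5 members among them. The quasi-likelihood test called 8.84% of genes and 7 members without an expression filter, and 1.34% of genes and 2 members without saline replicate 1. Both ADC/cmLumiOpto samples lay below both saline samples for 4 members, against 28.8% of all tested genes, and above them for 3 members, against 28.1%. Since the members were chosen on this contrast, nothing is read from these counts. With 2 samples against 2, an exact permutation test of a single gene cannot give a two-sided p under 0.333.

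The 10 genes did not share one direction. Eln, Fbn1, Fbn2 and Fbln2 were lower in both ADC/cmLumiOpto samples than in both saline samples. Fbln5, Efemp1 and Mfap4 were higher in both. The groups overlapped for Efemp2, Fbln1 and Mfap5. The log2 ratio of treated over saline levels, which is the log2 fold change fitted in edgeR, had a median of -0.37 over the 10 genes and of 0.028 over all tested genes. The former was -0.08 without saline replicate 1, -0.72 without saline replicate 2, -1.06 without ADC/cmLumiOpto replicate 1 and -0.04 without ADC/cmLumiOpto replicate 2, so its size rests on each sample. Without saline replicate 1, and likewise without ADC/cmLumiOpto replicate 2, 5 genes were lower and 5 higher. In bulk tissue, fewer cells that make a transcript and less transcript in each cell cannot be told apart.

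**Figure D1:**
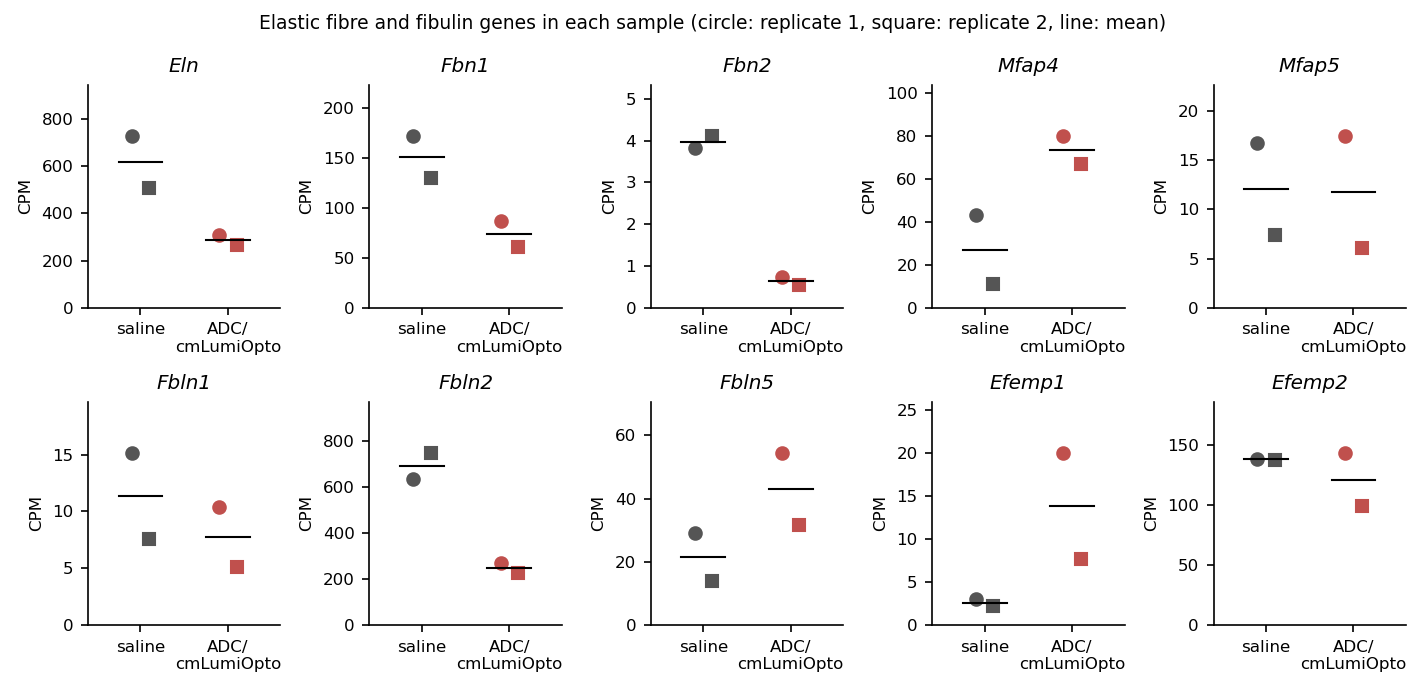
Level of each of the 10 genes in CPM (y axis, from 0) in the 2 saline samples (grey) and the 2 ADC/cmLumiOpto samples (red), with the mean of each group as a line. Eln, Fbn1, Fbn2 and Fbln2 lie lower in both treated samples, Mfap4, Fbln5 and Efemp1 lie higher, and the groups overlap for Efemp2, Fbln1 and Mfap5.

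Elastin itself, Eln (ENSMUSG00000029675, chr5:134731447-134776177), is the gene of the fibre core. Positions of genes are those listed with the counts, taken as mm39. It held 11628 and 7503 counts under saline and 5406 and 5464 counts under treatment. Both treated samples were low and close to each other, whereas the saline samples differed 1.44-fold after normalization. Mean Eln was 616 ± 156 CPM under saline and 286 ± 28.2 CPM under treatment (each SD, n = 2), a 2.15-fold lower mean and a log2 ratio of -1.11 ± 0.22 (SE). With each sample left out in turn, this ratio lay between -1.33 and -0.82. By the mean CPM over the samples, 302 of the 15320 tested genes were at or above Eln.

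The fibrillins form the microfibril on which elastin is deposited. Fbn1 (ENSMUSG00000027204, chr2:125142514-125349913), the main fibrillin of adult tissue, held 2748 and 1924 counts under saline and 1534 and 1244 counts under treatment. The groups did not overlap. The means were 151 ± 29.8 CPM (SD, n = 2) and 73.8 ± 18.6 CPM (SD, n = 2), with a log2 ratio of -1.03 ± 0.24 (SE). Fbn2 (ENSMUSG00000024598), a fibrillin known mostly from development, had 61 counts in each saline sample and 13 and 11 counts in the treated samples. It was thus scarce everywhere, but all 4 samples were above 3 counts and the samples of a group were close to each other. Its level was 3.96 ± 0.211 CPM (SD, n = 2) and 0.637 ± 0.142 CPM (SD, n = 2), a 6.22-fold lower mean and a log2 ratio of -2.63 ± 0.47 (SE). Per kilobase of transcript, Fbn1 was 49.1 and 34.4 times as high as Fbn2 in the saline samples and 129 and 123 times as high in the treated samples. Both fibrillins were lower after treatment, and Fbn2 by the larger factor. With a gene length trend removed, the log2 ratio was -0.72 for Fbn1 and -2.31 for Fbn2.

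The microfibril-associated glycoproteins differed from each other. Mfap4 (ENSMUSG00000042436, chr11:61376257-61379726), which binds elastin and fibrillin, held 691 and 161 counts under saline and 1410 and 1367 counts under treatment. Saline replicate 2 was far below the other 3 samples, and the saline samples differed 3.98-fold against 1.20-fold between the treated samples. The means were 27.0 ± 22.9 CPM (SD, n = 2) and 73.3 ± 9.37 CPM (SD, n = 2), with a log2 ratio of 1.44 ± 0.56 (SE). This value was 0.78 without saline replicate 2 and 2.75 without saline replicate 1. Mapk7, on the other strand, overlaps the listed span of Mfap4 and had 518 to 750 counts. Whether the counting used the strand is not given in the sources used here, so reads of the pair may not be fully separated. Mfap5 (ENSMUSG00000030116, chr6:122482804-122506249), which lies on the same microfibrils, held 268 and 110 counts under saline and 308 and 125 counts under treatment. The saline samples differed 2.26-fold and the treated samples 2.86-fold, more than the group means, and the log2 ratio was -0.04 ± 0.57 (SE). It was 0.66 without saline replicate 1 and -0.98 without ADC/cmLumiOpto replicate 1, so no direction is given.

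Fbln2 (ENSMUSG00000064080, chr6:91189437-91249522), a fibulin of vessel walls and basement membranes, was the member with the highest level per length in each of the 4 samples. It held 10117 and 11055 counts under saline and 4714 and 4613 counts under treatment. Both treated samples lay well under both saline samples, which differed only 1.18-fold. Mean Fbln2 was 689 ± 79.7 CPM under saline and 246 ± 29.8 CPM under treatment (each SD, n = 2), a 2.80-fold lower mean with a log2 ratio of -1.49 ± 0.18 (SE). Its range with each sample left out, -1.61 to -1.35, was the narrowest among the 10 genes.

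Fbln5 and Efemp1 were on the opposite side. Fbln5 (ENSMUSG00000021186, chr12:101712824-101785314) encodes fibulin-5, which tethers tropoelastin to microfibrils and to cell-surface integrins. It held 466 and 206 counts under saline and 959 and 648 counts under treatment. The lower treated sample, at 31.6 CPM, was only slightly above the higher saline sample, at 29.1 CPM. The means were 21.5 ± 10.8 CPM (SD, n = 2) and 43.0 ± 16.1 CPM (SD, n = 2), and the log2 ratio of 1.00 ± 0.40 (SE) became 1.63 without saline replicate 1, 0.58 without saline replicate 2 and 0.56 without ADC/cmLumiOpto replicate 1. Efemp1 (ENSMUSG00000020467, chr11:28803204-28876743), the gene of fibulin-3, held 48 and 32 counts under saline and 352 and 157 counts under treatment. All treated counts were above all saline counts, but the treated samples differed 2.61-fold from each other after normalization. The means were 2.58 ± 0.597 CPM (SD, n = 2) and 13.8 ± 8.69 CPM (SD, n = 2), a 5.35-fold higher mean and a log2 ratio of 2.41 ± 0.52 (SE). It was 1.57 without ADC/cmLumiOpto replicate 1 and 2.95 without ADC/cmLumiOpto replicate 2.

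Efemp2 and Fbln1 gave no clear direction. Efemp2 (ENSMUSG00000024909, chr19:5523982-5532545), the gene of fibulin-4, which brings lysyl oxidase to tropoelastin, held 2215 and 2040 counts under saline and 2525 and 2030 counts under treatment. The saline samples were at nearly the same level, 138 ± 0.685 CPM (SD, n = 2), and lay between the treated samples, at 143 and 99.0 CPM. The log2 ratio was -0.19 ± 0.21 (SE). Mus81, on the other strand, overlaps its listed span and had 119 to 362 counts. Fbln1 (ENSMUSG00000006369, chr15:85090150-85170736), a fibulin of elastic fibres and basement membranes, held 242 and 113 counts under saline and 184 and 105 counts under treatment. Replicate 1 was about as far above replicate 2 in the saline group, 1.99-fold, as in the treated group, 2.04-fold. Its log2 ratio of -0.55 ± 0.47 (SE) ranged from -1.14 without ADC/cmLumiOpto replicate 1 to 0.03 without saline replicate 1.

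**Figure D2:**
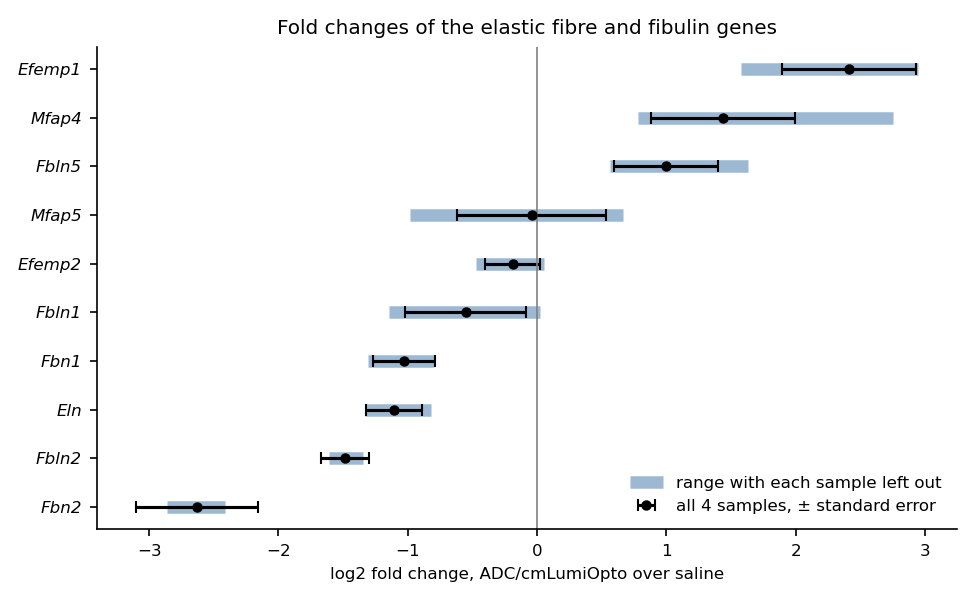
Log2 fold change of ADC/cmLumiOpto over saline (x axis) for each gene, with its standard error from edgeR (black) and the range over 4 fits that each leave out 1 sample (blue). The ranges of Fbn2, Fbln2, Eln and Fbn1 lie below 0 and those of Fbln5, Mfap4 and Efemp1 above 0, while those of Fbln1, Efemp2 and Mfap5 cross it.

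Levels of different genes were compared per length, as CPM per kilobase of the gene length listed with the counts. In the saline samples Fbln2, at 99.3 and 117, was above Eln, at 89.8 and 62.5, and Efemp2 followed at 36.6 and 36.3. Next came Mfap4, at 22.5 and 5.65, and Fbn1, at 14.2 and 10.7, whose samples overlapped. Mfap5, Fbln5 and Fbln1 overlapped one another between 1.74 and 4.67, Efemp1 was at 1.47 and 1.06, and Fbn2 was last at 0.289 and 0.311. In the ADC/cmLumiOpto samples the levels of the leading genes ran together. Fbln2 was at 41.9 and 35.3, Mfap4 at 41.6 and 34.7, Eln at 37.8 and 32.9, and Efemp2 at 37.8 and 26.1, and each overlapped its neighbour in the order. Efemp1, Fbln5 and Fbn1 also overlapped, between 3.76 and 9.79. Within each saline sample the order at the top was Fbln2, Eln and Efemp2. Within each treated sample it was Fbln2, Mfap4, Eln and Efemp2, with levels close to each other.

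Summed over the 10 genes, the level per length was 276 and 239 CPM per kilobase under saline and 191 and 145 under treatment. Fbln2 and Eln made up 35.9% and 32.5% of this sum in saline replicate 1 and 48.9% and 26.1% in saline replicate 2. In the treated samples Fbln2 contributed 21.9% and 24.3% and Eln 19.8% and 22.6%. The share of Mfap4 was 8.13% and 2.36% under saline and 21.7% and 23.9% under treatment. The ratio of Eln to Mfap4 per length was 3.99 and 11.1 in the saline samples and 0.910 and 0.949 after treatment, and that of Eln to Fbln5 was 21.3 and 31.1 against 4.81 and 7.20. These pairs join genes of opposite direction, so the order of the ratios follows from the levels above.

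**Figure D3:**
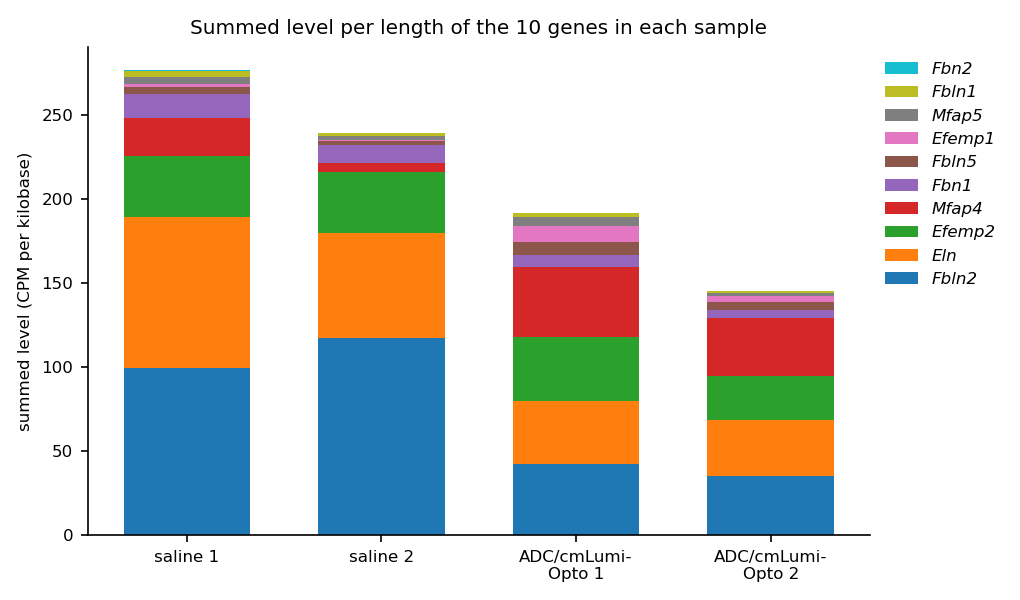
Summed level of the 10 genes in CPM per kilobase (y axis, from 0) in each sample, divided by gene. The bars reach 276 and 239 under saline and 191 and 145 under treatment, where the parts of Fbln2 and Eln are smaller and that of Mfap4 is larger.

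The samples of 1 group also differed from each other. All 10 genes were lower in ADC/cmLumiOpto replicate 2 than in replicate 1, by 1.15-fold to 2.86-fold, whereas 48.0% of all tested genes were. In the saline group 8 of the 10 were lower in replicate 2, against 50.5% of all tested genes, and the exceptions were Fbln2 and Fbn2. The summed level of 6 leukocyte markers was 893 and 482 CPM under saline and 835 and 3607 CPM under treatment, with S100a8 at 63353 counts in ADC/cmLumiOpto replicate 2 against 2526 to 7452 elsewhere. Its part in the lower levels of that sample was not tested.

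The start-site regions of members that differed in each direction are shown to let their sequence be compared. RefSeq promoters (GRCm38.p6) were used for 6 of the 10 members, and the outermost start was taken where a gene had several. Fbn2 was left out by a rule on its chromosome. The 250 bases before the annotated start, 5′ to 3′ on the strand of the gene, are printed for Fbln2 (chr6:91212514-91212763, plus strand) and Fbn1 (chr2:125506439-125506688, minus strand), which were lower, and for Fbln5 (chr12:101819120-101819369, minus strand) and Efemp1 (chr11:28852955-28853204, plus strand), which were higher. Capitals mark matches, on either strand, to a TATA box (TATAAA), an AP-1 site (TGANTCA), a GC box (GGGCGG) or a SMAD box (CAGAC). None of these motifs overlapped another where they matched.
Fbln2: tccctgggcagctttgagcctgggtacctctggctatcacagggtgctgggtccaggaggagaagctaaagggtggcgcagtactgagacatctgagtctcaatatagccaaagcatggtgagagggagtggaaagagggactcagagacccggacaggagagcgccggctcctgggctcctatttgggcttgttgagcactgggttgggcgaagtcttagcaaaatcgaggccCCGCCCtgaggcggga
Fbn1: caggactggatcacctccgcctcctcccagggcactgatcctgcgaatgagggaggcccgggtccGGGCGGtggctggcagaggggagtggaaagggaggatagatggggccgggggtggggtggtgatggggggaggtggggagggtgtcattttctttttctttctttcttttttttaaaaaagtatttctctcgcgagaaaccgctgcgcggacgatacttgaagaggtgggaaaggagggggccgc
Fbln5: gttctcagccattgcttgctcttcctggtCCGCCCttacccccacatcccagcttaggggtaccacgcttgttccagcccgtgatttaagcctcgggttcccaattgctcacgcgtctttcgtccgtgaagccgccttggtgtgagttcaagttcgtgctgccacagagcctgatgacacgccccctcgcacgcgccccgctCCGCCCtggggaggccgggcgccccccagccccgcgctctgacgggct
Efemp1: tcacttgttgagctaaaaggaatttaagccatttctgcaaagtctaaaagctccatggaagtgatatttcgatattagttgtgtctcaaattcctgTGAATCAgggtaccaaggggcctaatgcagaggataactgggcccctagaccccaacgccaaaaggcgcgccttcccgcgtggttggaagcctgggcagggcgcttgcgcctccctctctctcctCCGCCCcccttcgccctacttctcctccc

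The TATA box had no match in these 4 windows or in those of Fbln1 and Efemp2, and 12.4% of all 32851 RefSeq promoters in the same table held one. A GC box was found once in Fbln2, Fbn1 and Efemp1, at 2 places each in Fbln5 and Efemp2 and not in Fbln1, against 32.7% of all promoters with at least 1. The AP-1 motif matched once, in Efemp1, and 6.75% of all promoters held it. The SMAD box had no match in the 4 windows, 2 each in Fbln1 and Efemp2, and was present in 42.2% of all promoters. Genes that were lower and genes that were higher therefore both had a GC box. The matches describe letters only and not sites of binding.

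The rest of the elastic fibre pathway was examined as a list of 72 other genes in 8 roles, of which 62 passed the filter. The quasi-likelihood test of edgeR called none at an adjusted p under 0.05 (0%). At an unadjusted p under 0.05, 16 were lower and 12 higher, beside 12.2% and 11.0% of all genes. In the edgeR exact test 7 were lower and 5 higher at an adjusted p under 0.05, beside 3.68% and 3.96%. DESeq2 called 16 of the 60 listed genes that it gave an adjusted p, beside 9.99% of all genes with one. The median log2 ratio of the list was -0.20, with 35 genes lower and 27 higher. Medians by role ran from -0.77 to 0.70, and the difference between roles was not tested.

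Of the 6 genes for cross-linking, the lysyl oxidases and their copper pump, all had a lower treated mean. In 5 of them, all but Loxl4, both treated samples were below both saline samples, as in 28.8% of all tested genes. Loxl2, a lysyl oxidase-like enzyme, held 1321 and 1068 counts under saline and 424 and 568 counts under treatment, a log2 ratio of -1.58 ± 0.18 (SE, edgeR adjusted p = 0.116). Loxl1, the family member most closely tied to elastin, had 1437 and 1085 counts against 754 and 763, a log2 ratio of -1.03 ± 0.18 (SE, edgeR adjusted p = 0.116). Atp7a, the copper pump that supplies these enzymes, had a log2 ratio of -0.76 (edgeR adjusted p = 0.126). Lox itself, named after its values were seen, had 3116 and 2113 counts against 1288 and 2533, with a log2 ratio of -0.78 (edgeR adjusted p = 0.182). All 4 latent TGF-β binding proteins, which sit on microfibrils and hold the latent growth factor, had both treated samples below both saline samples, again beside 28.8% of all tested genes. Ltbp4, which also takes part in elastin deposition, had 4087 and 4665 counts against 2701 and 3099, a log2 ratio of -0.91 (edgeR adjusted p = 0.116), and Ltbp1 and Ltbp3 had values of -0.79 and -0.41 (adjusted p = 0.132 and 0.198). Ltbp1 was at -0.47 without saline replicate 2, and with a gene length trend removed Ltbp1 was at -0.51 and Ltbp3 at -0.18.

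The genes listed as other microfibril and fibulin proteins had no shared direction, with 4 of 8 tested genes lower and 4 higher. Of these, 0 had an unadjusted p under 0.05 in edgeR, and the median log2 ratio was -0.03. Mfap1a, Mfap1b, Mfap3 and Mfap3l carry the name microfibril-associated protein, which does not show that their products lie in microfibrils. Mfap3l, Mfap1b and Mfap1a had log2 ratios of 0.89, -0.98 and 0.29 (edgeR adjusted p = 0.260, 0.291 and 0.431). Mfap1a and Mfap1b are near-identical copies, so the division of reads between them is uncertain, and Mfap1b was at -0.01 without saline replicate 2. Of 9 tested ADAMTS and ADAMTS-like genes, 4 were lower and 5 higher. Adamtsl2, which binds fibrillin-1, held 84 and 68 counts under saline and 214 and 197 counts under treatment, a log2 ratio of 1.14 (edgeR adjusted p = 0.123). Adamts10, a protease of microfibrils, had a log2 ratio of 0.95, and Adamtsl3 of -0.44 (edgeR adjusted p = 0.144 and 0.213). Adamts10 was at 0.56 without ADC/cmLumiOpto replicate 2, and Adamtsl3 at -0.28 without saline replicate 2 and -0.24 with the length trend removed.

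Among growth factors that microfibrils hold and their processing protease Furin, 6 of 7 tested genes had a lower treated mean. Tgfb2 had 372 and 374 counts against 186 and 260, a log2 ratio of -1.06, and Bmp7 1432 and 2230 counts against 931 and 730, a log2 ratio of -1.44 (edgeR adjusted p = 0.116 for each). Bmp4 was the exception, at 1.04 (edgeR adjusted p = 0.196), or 0.68 without saline replicate 2. Of the 12 integrin and elastin receptor genes, 7 were lower and 5 higher. Itga5 and Itgav, subunits of receptors for matrix with an RGD motif, had log2 ratios of -0.91 and -0.56 (edgeR adjusted p = 0.116 and 0.127), and Itgav was at -0.29 with the length trend removed. Itga8, whose product also binds RGD, had 192 and 99 counts against 422 and 360, a log2 ratio of 1.15 (edgeR adjusted p = 0.141).

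Of 9 tested proteases that degrade elastin, 8 had a higher treated mean. In 4 of these both treated samples were above both saline samples, beside 28.1% of all tested genes, and Mmp9, Ctss, Prtn3 and Ctsl overlapped. Mmp9, a gelatinase of neutrophils, had 2076 and 8296 counts in the treated samples against 3374 and 1625 under saline, and Elane, neutrophil elastase, 21 and 59 against 19 and 14. Both, named after their values were seen, were high in ADC/cmLumiOpto replicate 2, the sample with the high S100a8. The part of leukocytes was not tested. Mmp12, macrophage elastase, held 620 and 354 counts under saline and 1385 and 1964 counts under treatment, a log2 ratio of 1.48 ± 0.26 (SE, edgeR adjusted p = 0.116). Ctsk, the lysosomal elastase and collagenase cathepsin K, had 175 and 101 counts against 400 and 360, a log2 ratio of 1.18 (edgeR adjusted p = 0.123). Mmp2, a gelatinase, was the exception, with 2878 and 1733 counts against 683 and 878, a log2 ratio of -1.86 ± 0.24 (SE, edgeR adjusted p = 0.116). Of 7 tested inhibitor genes, 3 were lower and 4 higher. Slpi, an inhibitor of neutrophil elastase, had 2097 and 2366 counts against 4971 and 5956, a log2 ratio of 0.98 (edgeR adjusted p = 0.116). Serpinb1a, which inhibits the same protease, and Cst3, an inhibitor of cathepsins, had log2 ratios of 1.77 and 0.62 (edgeR adjusted p = 0.123 and 0.167), and that of Serpinb1a was 0.85 without ADC/cmLumiOpto replicate 2. Cst3 was at 0.33 without ADC/cmLumiOpto replicate 1 and 0.30 with the length trend removed.

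**Figure D4:**
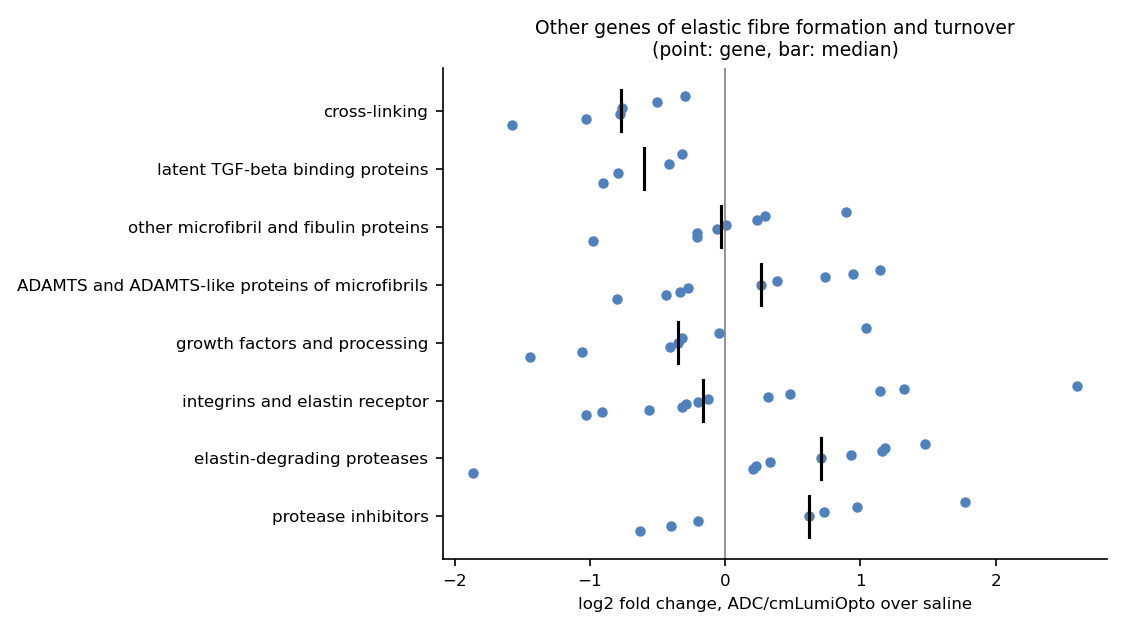
Log2 fold change of ADC/cmLumiOpto over saline (x axis) for the 62 tested genes of elastic fibre formation and turnover, by role, with the median of each role as a bar. The medians run from -0.77 for cross-linking to 0.70 for elastin-degrading proteases.

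Markers of other cells also differed in level between the groups. The quasi-likelihood test of edgeR called 0 markers of any cell type at an adjusted p under 0.05. All 7 alveolar epithelial markers were higher in both ADC/cmLumiOpto samples than in both saline samples, beside 28.1% of all tested genes. None was at 0. Their summed level, most of it Sftpc, was 1575 and 338 CPM under saline and 5734 and 4911 CPM under treatment. Saline replicate 2 thus had the lowest alveolar level and also the lowest Mfap4, Fbln5 and Efemp1. The 4 airway epithelial markers were at 1094 and 76.8 CPM against 5888 and 2812 CPM. Scgb1a1 alone held 1085 and 73.9 CPM against 5819 and 2781 CPM of these sums. Of the 4, 3 were higher in both treated samples, again beside 28.1% of all tested genes, and Ccdc39 overlapped between the groups. Endothelial markers, 6 of 7 with a higher treated mean, summed to 468 and 375 CPM against 503 and 765 CPM.

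Mesenchymal markers, from the cells that make elastic fibres, did not share one direction. Of 6 fibroblast markers, 3 were lower and 3 higher by the mean, and the sum was 388 and 351 CPM under saline and 264 and 290 CPM under treatment. Pdgfra and Dcn held most of this sum. Pdgfra had 3377 and 3564 counts against 2091 and 2851, whereas Tcf21, a transcription factor of resident lung fibroblasts, had 54 and 13 counts against 184 and 194. Tcf21, Dpt and Pi16, named after their values were seen, were, like Mfap4, higher in both treated samples and lowest in saline replicate 2. All tested genes were higher in both treated samples in 28.1% of cases. Pdgfra, Dcn and Lum had a lower treated mean. Lum had 441 and 79 counts against 102 and 36, a log2 ratio of -2.135, and its groups overlapped. The 8 smooth muscle and pericyte markers summed to 168 and 181 CPM against 130 and 157 CPM, and the 5 mesothelial markers to 231 and 340.3 CPM against 286 and 234 CPM. The 6 carcinoma and epithelial markers were at 2906 and 3242 CPM against 2852 and 2775 CPM. By the mean, 3 of them were lower and 3 higher, and Krt8 and Krt18 held most of the sum. The 5 proliferation markers were at 1009 and 1008 CPM against 657 and 583 CPM. Of these, 4 were lower and 1 higher by the mean, and Top2a and Mki67 held most of the sum. The part of any of these cell types in the levels of the members was not tested.

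**Figure D5:**
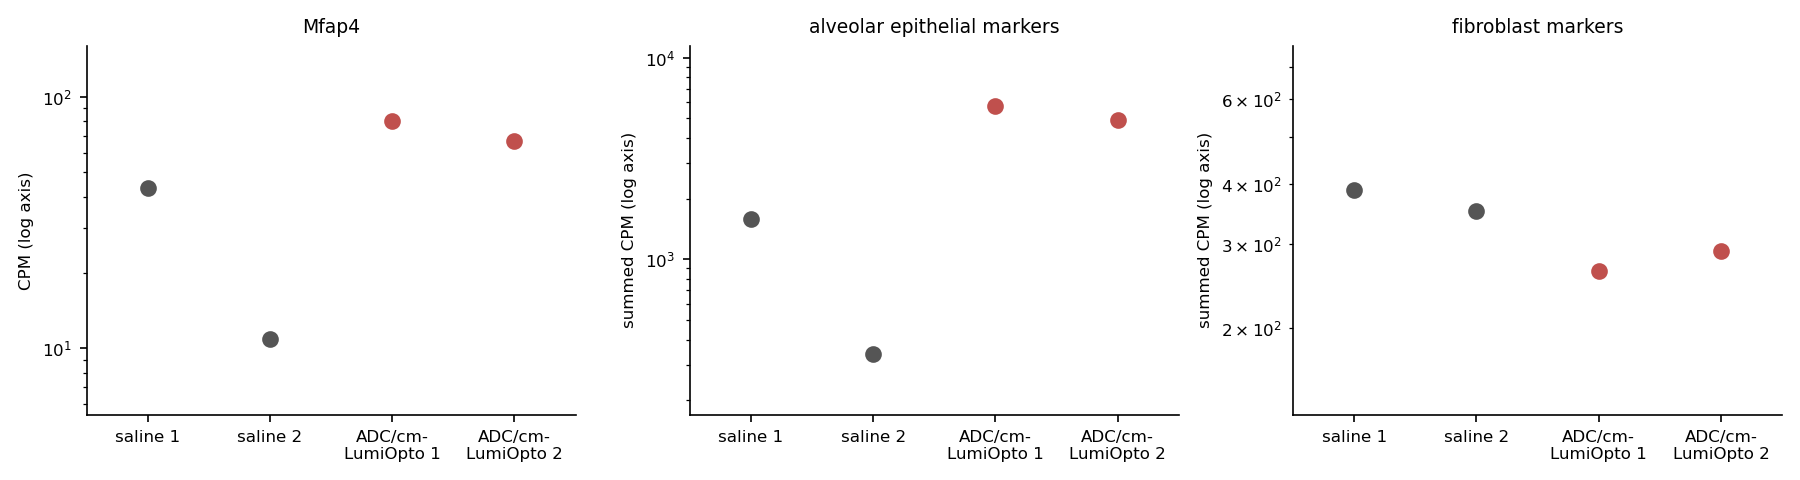
Mfap4 in CPM (left), the summed CPM of 7 alveolar epithelial markers (middle) and of 6 fibroblast markers (right) in each sample, each on a log axis. Mfap4 and the alveolar markers are both lowest in saline replicate 2 and highest in the ADC/cmLumiOpto samples. The fibroblast sum, led by Pdgfra and Dcn, is lower in the treated samples, at 264 and 290 against 388 and 351 CPM. Of its 6 markers, Tcf21, Dpt and Pi16 are, like Mfap4, higher in both treated samples and lowest in saline replicate 2. Pdgfra, Dcn and Lum have a lower treated mean.

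The genes whose pattern over the 4 samples was most like the median pattern of the 10 were sought by the Euclidean distance of their centred log2 CPM. The nearest were Asb4, at a distance of 0.072, Gm14328, Eif3s6-ps2, Olfr753-ps1 and Pheta2, up to 0.17. Their counts were 91 or fewer in every sample, and Asb4 held 91 and 53 counts under saline and 73 and 47 counts under treatment. This median pattern blends genes that were lower with genes that were higher, and replicate 1 was above replicate 2 in both groups.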

How the data were processed

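Bulk RNA sequencing counts of 2 saline and 2 ADC/cmLumiOpto samples were analyzed. Whole-number read counts per gene, without normalization, were deposited by the authors. The methods name HISAT2 and GRCm38, the submitters' processing notes mm39, and the counting program is not given in the sources used here. The positions listed with the counts differed from GRCm38 for all 10 members and are given as mm39. The members, gene lists and tests were chosen with earlier results of these data known.

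Genes were filtered by filterByExpr (minimum count 10, minimum total 15), normalized by TMM and compared by glmQLFit and glmQLFTest in edgeR 4.0.16 (R 4.3.3) with Benjamini-Hochberg adjustment over all tested genes and a threshold of 0.05. Standard errors of log2 ratios (treated over saline) were taken as |log2 ratio|/√F, and the prior count was 0.125. The code was tested on simulated data. No label states that same-group samples came from separate animals, so p-values measure the spread between these samples. Alternatives were DESeq2 1.42.0, the exact test, other normalizations and filters, a replicate block, removal of a gene length trend (lowess span 0.3) and each sample left out.

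All 10 members were named. Of the 72 pathway genes, the 3 tested with the smallest p in each role were named by rule, as were the 5 genes with the nearest pattern. Other pathway genes were named outside this rule, among them Lox, Mmp9 and Elane, after their values were seen. Levels per length used the listed gene length, which may count exons that these samples do not use.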

Additional observations from a re-analysis of the deposited data

How the results depend on the processing

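With all 4 samples, the quasi-likelihood test of edgeR called 0 genes, and 0 of the pathway list, at an adjusted p under 0.05. This held for library size without TMM, upper-quartile factors, at least 10 counts in every sample and removal of the gene length trend. DESeq2 called 1353 genes (16 of the pathway list), the edgeR exact test 1170 (12) and the quasi-likelihood test without an expression filter 2259 (23). With 1 sample left out, where the lone sample of a group is taken to vary like the other group, between 0 and 206 genes and between 0 and 4 of the pathway list were called, the highest numbers without saline replicate 1. The replicate block called 607 genes (3.96% of those tested), 12 of the pathway list and 7 members. Same-numbered samples had a correlation of 0.099 in their deviations and share only a number, so they were not taken as paired. DESeq2 (9.99% of genes) and the exact test (7.64%) called 5 members each, the test without an expression filter (8.84%) 7 and that without saline replicate 1 (1.34%) 2. The causes of these differences were not tested.

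The median log2 fold change of the members, -0.37, lay between -0.38 and -0.28 over these settings and at -0.37 with a prior count of 2. Samples left out moved it from -1.06 to -0.04. Over the settings with all 4 samples, Mfap5 was the member that turned, to 0.05 with upper-quartile factors. Removal of the length trend made 7 members smaller in size, among them Eln at -0.90, Fbn1 at -0.72, Mfap4 at 1.21 and Efemp1 at 2.18. Fbln5, at 1.165, Efemp2, at -0.22, and Mfap5, at -0.08, became larger in size. Olfr753-ps1, at -0.48 with all samples, ranged from -1.09 to 0.035 with 1 left out and turned without saline replicate 1. Depth limits Fbn2, whose treated samples held 13 and 11 counts. The share of Eln in the summed level of the saline samples was 36.6% without length and 29.3% with it.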
